A study of Rattus norvegicus with 6 samples.

Results

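The genes described here encode the enzymes that remove reactive oxygen species, the glutathione transferases, and the NADPH oxidases that make such species. They were taken from the deposited gene table by symbol, as all rows named for superoxide dismutases, glutathione peroxidases, peroxiredoxins, glutathione transferases, thioredoxin reductases and NADPH oxidases, with 14 further named genes of the same system. The rule found 55 genes of the 19266 in the table. It used no measured value, but the members were chosen with earlier results of these data known. The 6 libraries held RNA of mesenchymal stem cells from rat bone marrow, wild type and named SCSP-402. In 3 libraries the cells had been co-cultured with BV2, a mouse microglial line, without stimulation, and in the other 3 the same co-culture had received lipopolysaccharide (LPS), the bacterial cell wall component sensed by toll-like receptor 4. Every library therefore came from a co-culture with BV2, and no stem cells cultured alone were analysed here. The sources used here do not give the LPS dose, its duration or how the cell types were separated. The labels do not say if each replicate was its own culture, and p-values therefore measure library-to-library spread that may be technical.

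Superoxide made by mitochondria and by NADPH oxidases is converted to hydrogen peroxide by the superoxide dismutases. Catalase, glutathione peroxidases and peroxiredoxins then remove the peroxide, and the peroxidases and peroxiredoxins draw electrons from glutathione and thioredoxin. Glutathione transferases couple glutathione to reactive compounds and lipid products. Many of these genes are targets of the transcription factor NRF2, which its partner KEAP1 marks for degradation until oxidants or electrophiles modify KEAP1, and SOD2 is a well-known target of NF-kB. In mesenchymal stromal cells this system is studied mainly for its part in survival under oxidative stress.

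All 10 of 10 mesenchymal stromal markers lay above 1 FPKM (fragments per kilobase of transcript, scaled to library size) in every library. Their levels also differed between the groups, with 7 of the 10 higher with LPS and 2 lower by the test described below for the members. Their summed level, mostly collagen, ran from 17408 to 18969 FPKM untreated and from 14143 to 14274 FPKM with LPS. Named after their values were seen, Pdgfra, a growth factor receptor, was 2.90-fold higher (adjusted p = 0.000310 by edgeR) and Col1a2, a collagen chain, 1.54-fold lower (0.000132). The part of these shifts in the results was not tested. Of 15 microglial and macrophage markers in the table, 13 never reached 1 FPKM, and none was at 0 in all 6 libraries. Their summed level lay between 67.1 and 74.6 FPKM in the untreated and between 72.6 and 97.8 FPKM in the LPS libraries. Most of that sum was Tmem119, at 62.4 to 70.7 FPKM, and the rest mainly Fcer1g, which stood at 27.4 FPKM in LPS replicate 1 and at 2.29 and 2.98 in the other LPS libraries. Ptprc, the pan-leukocyte marker, was at most 0.0174 FPKM. Which cells gave the Tmem119 RNA was not tested. BV2 is a mouse line and the genome build was of rat, so these rows may register BV2 RNA poorly. Libraries held between 77.4 M and 82.03 M deposited count units. Untreated replicate 1 stood apart from its group on the first principal component, at -11.3 where the other untreated libraries lay at -36.1 and -38.0 and the LPS libraries between 25.4 and 30.1. In bulk RNA, fewer cells of a kind and less RNA per cell cannot be told apart.

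With LPS, 17 of the 46 tested members rose and 3 fell, while 26 did not pass the test. A gene was tested where it reached 1 FPKM in at least 3 of 6 libraries, and called where edgeR's quasi-likelihood test gave a Benjamini-Hochberg adjusted p under 0.05 over all 11559 tested genes. Over all tested genes 39.1% were called, 20.1% higher and 19.0% lower, against 37.0% higher and 6.52% lower among the tested members. The median log2 fold change was 0.12 over the tested members and 0.00 over all tested genes. All 46 tested members reached 1 FPKM in every library, so none entered the test through one group alone. Most of the called changes were small. Of the 17 that rose, 5 changed at least 1.5-fold, namely Sod2, Prdx5, Mgst2, Cyba and Sod3, and of the 3 that fell only Nox4 did. For 22 of the 46 tested members every LPS FPKM exceeded every untreated FPKM, against 3788 (32.8%) of the 11559 tested genes. For 3 the reverse held, against 2378 (20.6%). This tally used deposited FPKM, without the scaling factors of the edgeR fit. With library totals as the only scaling, the median log2 fold change over all tested genes was 0.05. The split over all genes depended on scaling, as higher genes made up 51.3% of calls in the reported fit, 62.7% with library totals as the only scaling and 44.3% with library totals that left out the 50 most abundant genes. Among the members that share was 85.0%, 86.4% and 82.4% under the same scalings, and no called member changed direction in any of the 17 alternatives run.

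**Figure D1:**
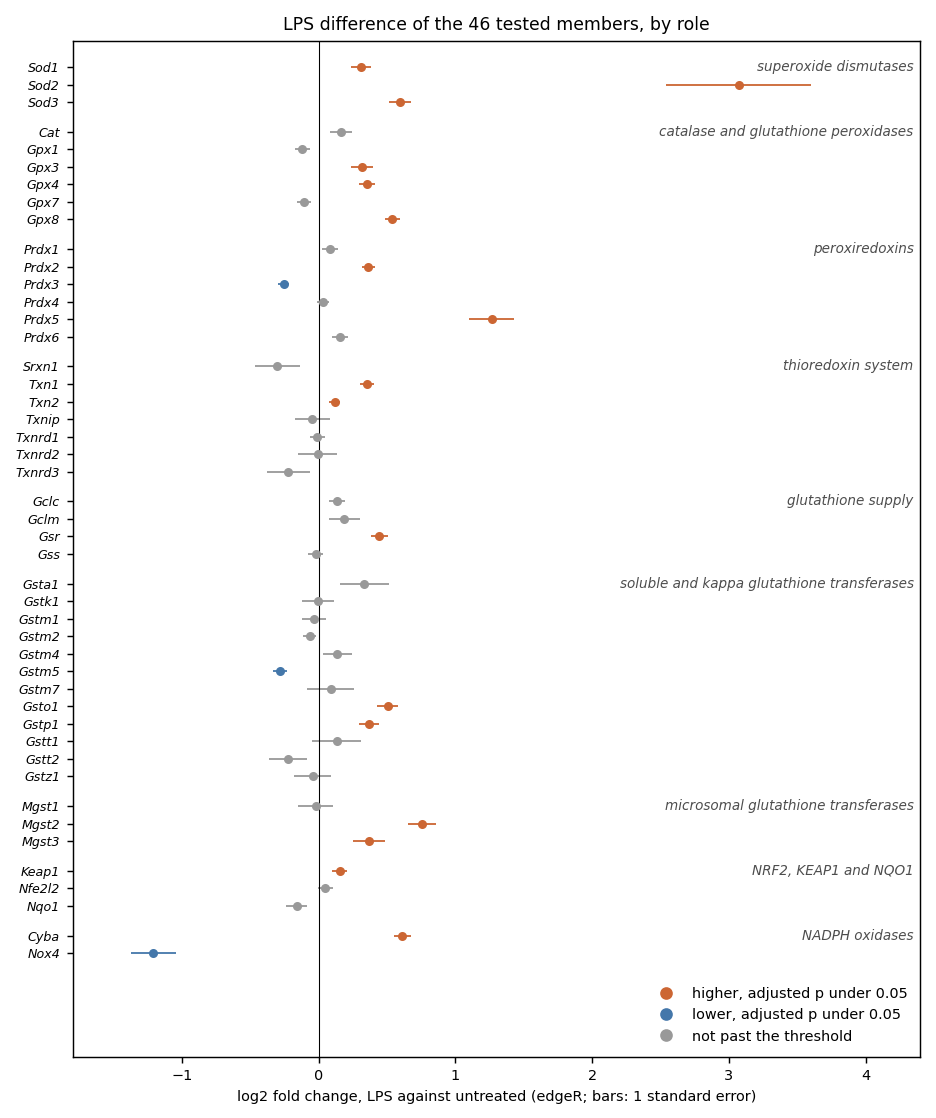
Log2 fold change, LPS against untreated, of the 46 tested members by role, with bars of 1 standard error from the edgeR fit to 3 libraries per group. Sod2 at 3.07 and Prdx5 at 1.26 stand furthest to the right and Nox4 at -1.21 furthest to the left, with most other members within 0.6 of 0.

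Untreated replicate 1 lay on the LPS side of the other untreated libraries for 17 of the 20 called members and for 3185 of the 4524 called genes. Its median place was 20.3% of the way from the mean of untreated replicates 2 and 3 to the LPS mean, where 19.4% was the median over all called genes. The range over the called members ran from -27.4% for Gstp1 to 61.7% for Gpx3. Without that library 20 members were called higher and 4 lower, among 2635 higher and 2419 lower of the 11559 genes. The part of this library in the results was not tested beyond leaving it out.

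**Figure D2:**
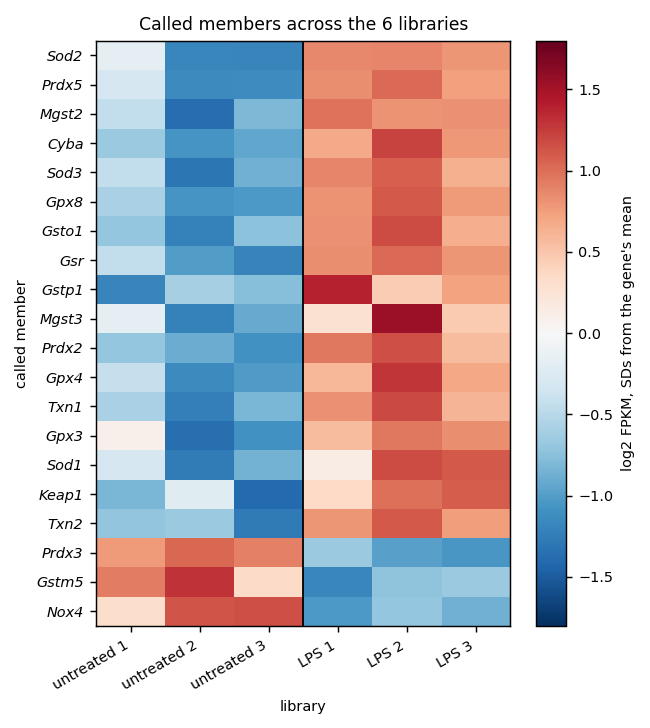
Log2 FPKM of the 20 called members in each of the 6 libraries, as the number of standard deviations from the gene's mean over all libraries, ordered by fold change. Untreated replicate 1 is paler than untreated replicates 2 and 3 for Sod2, Prdx5, Mgst3, Gpx3 and Nox4, and Prdx3, Gstm5 and Nox4 form the block that fell.

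Promoter sequences are shown for the genes with the largest rise and fall, Sod2, Prdx5 and Nox4, for Cyba as the partner subunit of the NADPH oxidases, and for Gstp1, whose window carries an overlapping pair of motifs. Each is a RefSeq window of 300 bases on rat build GRCr8, from 250 before to 50 after the annotated start, read 5′ to 3′ on the strand of the gene. Sod2 lies at chr1:50050119-50050418 on the minus strand, Prdx5 at chr1:213531978-213532277 on the minus strand, Cyba at chr19:67404165-67404464 on the minus strand, Nox4 at chr1:150313639-150313938 on the plus strand and Gstp1 at chr1:210769656-210769955 on the minus strand. Capitals mark every match to the motifs searched on both strands, which were the core of the antioxidant response element that NRF2 binds (TGACNNNGC), the AP-1 site (TGACTCA or its reverse complement TGAGTCA) and the kappaB consensus of NF-kB. An AP-1 site followed by GC also reads as an antioxidant response core, so these motifs can overlap.
Sod2: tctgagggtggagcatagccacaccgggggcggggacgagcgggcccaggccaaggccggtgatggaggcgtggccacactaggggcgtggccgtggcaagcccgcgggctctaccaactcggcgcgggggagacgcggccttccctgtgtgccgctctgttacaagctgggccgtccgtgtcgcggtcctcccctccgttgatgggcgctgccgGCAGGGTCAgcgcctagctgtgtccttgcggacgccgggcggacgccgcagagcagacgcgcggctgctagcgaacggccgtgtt
Prdx5: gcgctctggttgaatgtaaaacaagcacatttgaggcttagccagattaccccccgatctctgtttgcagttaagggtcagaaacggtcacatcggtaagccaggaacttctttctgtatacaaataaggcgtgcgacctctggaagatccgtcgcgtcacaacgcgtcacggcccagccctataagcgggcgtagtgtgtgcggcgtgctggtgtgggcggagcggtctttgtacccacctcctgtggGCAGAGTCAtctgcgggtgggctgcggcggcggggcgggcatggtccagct
Cyba: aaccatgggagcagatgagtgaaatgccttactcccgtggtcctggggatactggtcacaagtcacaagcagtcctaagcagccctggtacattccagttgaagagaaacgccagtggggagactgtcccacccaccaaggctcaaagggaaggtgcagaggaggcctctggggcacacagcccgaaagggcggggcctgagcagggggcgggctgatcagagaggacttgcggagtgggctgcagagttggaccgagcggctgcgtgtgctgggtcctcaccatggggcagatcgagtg
Nox4: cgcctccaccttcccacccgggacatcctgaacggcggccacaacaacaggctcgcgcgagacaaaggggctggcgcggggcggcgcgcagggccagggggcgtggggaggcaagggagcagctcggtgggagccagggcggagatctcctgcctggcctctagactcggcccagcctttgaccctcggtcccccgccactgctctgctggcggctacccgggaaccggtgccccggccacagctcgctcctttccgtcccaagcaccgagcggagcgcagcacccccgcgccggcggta
Gstp1: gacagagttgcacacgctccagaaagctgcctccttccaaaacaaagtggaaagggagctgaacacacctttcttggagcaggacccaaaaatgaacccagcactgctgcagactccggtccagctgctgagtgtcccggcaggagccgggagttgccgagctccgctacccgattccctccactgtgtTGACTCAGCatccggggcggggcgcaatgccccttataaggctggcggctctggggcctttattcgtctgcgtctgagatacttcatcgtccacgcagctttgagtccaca

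The Sod2 window holds an antioxidant response core, TGACCCTGC on the other strand, starting 35 bases before the start site, and the Prdx5 window holds TGACTCTGC across the start site, also on the other strand. In Gstp1 the match TGACTCAGC begins 61 bases before the start and contains an AP-1 site. No match lies in these letters of the Cyba and Nox4 windows. RefSeq windows were found for 47 of the 55 members, 51 windows in all, with no entry used for Gpx8, Gsr, Gstt1, Gstt2, Mgst2, Prdx6, Sod3 and Txnip. The antioxidant response core occurred in the windows of 13 members. Of these 3 rose (Sod2, Prdx5 and Gstp1), 1 fell (Gstm5), 8 were not called and 1 was not tested. These few calls stand beside 20.1% higher and 19.0% lower over all tested genes, and 37.0% and 6.52% over the tested members. Whether any of the motifs bears on these changes was not tested. It was present in 25.5% of member windows and in 12.1% of all 33469 windows, and member windows were richer in G and C, with a median of 58.7% against 51.7%. The kappaB consensus was present in 7.84% of member windows and 7.51% of all windows, in the promoters of Gpx4, which rose, Prdx3, which fell, Gpx1, which was not called, and Nox1, which was not tested. AP-1 sites were present in 9.80% and 4.63%, in Gstm5, Gsto1, Gstp1, Prdx1 and Srxn1.

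All 3 superoxide dismutases rose, beside 20.1% of all tested genes. Sod2, the manganese enzyme of the mitochondrial matrix, stood at 59.6, 14.4 and 14.3 FPKM in untreated replicates 1 to 3 and at 260, 267 and 238 FPKM in the LPS libraries. The groups did not overlap, and untreated replicate 1 stood well above its partners. The gene (ENSRNOG00000019048) lies on the minus strand at chr1:47636528-47645189 in the rat build mRatBN7.2. Its log2 fold change of 3.07 ± 0.53 (SE) had an adjusted p of 0.00248 by edgeR, and only 28 of the 11559 tested genes had a larger one. Its FPKM values alone gave p = 0.1 in an exact permutation test (two-sided), which 3 against 3 libraries cannot go below. The fold was 8.40 with all libraries and 17.1 once untreated replicate 1 was left out.

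Sod3, the copper and zinc enzyme secreted to the cell surface and matrix, stood at 70.2, 56.1 and 62.8 FPKM in untreated and at 98.5, 104 and 92.8 FPKM in LPS co-culture. The lowest LPS value lay above the highest untreated value, a 1.51-fold rise (log2 fold change 0.59 ± 0.079 SE, adjusted p = 0.000718 by edgeR, chr14:58609958-58615990). Sod1, the cytosolic copper and zinc enzyme, rose 1.24-fold, from 24.98 ± 1.85 to 32.01 ± 2.78 FPKM (SD, n = 3, adjusted p = 0.0110 by edgeR). The order of levels changed. In untreated replicates 2 and 3 Sod3 had the highest FPKM of the family and Sod2 the lowest, while in all 3 LPS libraries Sod2 was highest and Sod1 lowest. Sod2 made up 38.0%, 15.4% and 14.0% of the summed FPKM of the family in the untreated libraries and 67.1%, 66.0% and 65.3% in the LPS libraries. The ratio of Sod2 to Sod1 FPKM was 2.21, 0.620 and 0.577 untreated and 9.02, 7.90 and 7.12 with LPS.

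**Figure D3:**
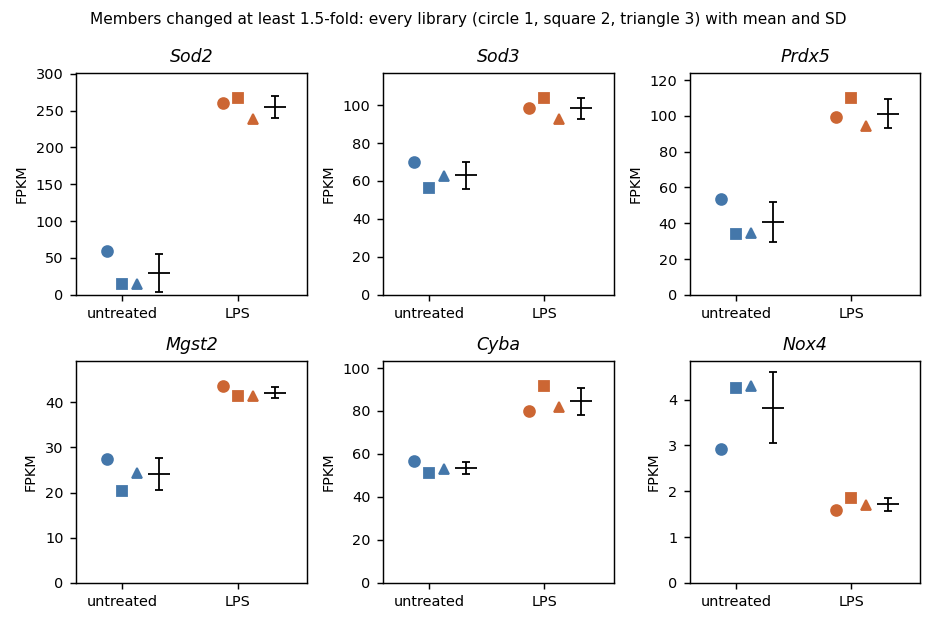
FPKM of the 6 members that changed at least 1.5-fold, in every library of each group, with the mean and SD of 3 libraries beside the points. The groups are separate for all 6, and untreated replicate 1, drawn as a circle, is the untreated library nearest the LPS group in all 6, for example at 59.6 FPKM for Sod2 and 2.93 for Nox4.

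Of the 6 tested genes of catalase and the glutathione peroxidases, 3 rose and none fell, beside 20.1% and 19.0% of all tested genes. Gpx8, a membrane-bound peroxidase of the endoplasmic reticulum, was the most abundant at 123, 110 and 111 FPKM untreated and 168, 180 and 167 FPKM with LPS. All LPS values lay above all untreated ones, a 1.45-fold rise (log2 fold change 0.54 ± 0.054 SE, adjusted p = 0.000215 by edgeR). Gpx4, the selenoenzyme that reduces lipid hydroperoxides in membranes and restrains ferroptosis, stood at 84.9, 75.4 and 76.8 FPKM untreated and 99.96, 112 and 102 FPKM with LPS, a 1.28-fold rise (adjusted p = 0.00251 by edgeR). Gpx3, the secreted plasma enzyme, rose 1.24-fold, from 75.2 ± 9.77 to 96.7 ± 3.06 FPKM (adjusted p = 0.0150 by edgeR). The deposited table lists the Gpx3 row under the transcript type lncRNA. The Gpx3 call was lost without untreated replicate 3 (adjusted p = 0.0515 by edgeR), without LPS replicate 2 (0.0580) and in limma with quantile normalization (0.0768).

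The other peroxide-removing enzymes of this group did not pass. Gpx1, the cytosolic and mitochondrial selenoenzyme, stood at 70.2 ± 3.15 and 66.9 ± 2.65 FPKM (adjusted p = 0.104 by edgeR). Gpx7, like Gpx8 a resident of the endoplasmic reticulum, stood at 45.1 ± 0.718 and 43.3 ± 2.13 FPKM, with overlapping groups. Cat, the peroxisomal catalase, stood at 20.0 ± 2.28 and 23.2 ± 1.41 FPKM (adjusted p = 0.143 by edgeR). Without untreated replicate 1, Cat passed as higher (adjusted p = 0.00901 by edgeR) and Gpx1 as lower (0.0346). Gpx2, the epithelial enzyme of the gut, was below the filter, at most 0.205 FPKM.

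Among the 6 peroxiredoxins, Prdx5 and Prdx2 rose (33.3%) and Prdx3 fell (16.7%), beside 20.1% and 19.0% of all tested genes. With 6 genes these shares rest on few calls. Prdx5, which is found in mitochondria, peroxisomes and cytosol, stood at 53.8, 34.2 and 34.4 FPKM untreated and at 99.4, 110 and 94.3 FPKM with LPS. LPS and untreated values were separate, with untreated replicate 1 between the other untreated libraries and the LPS libraries. The rise was 2.40-fold (log2 fold change 1.26 ± 0.16 SE, adjusted p = 0.000594 by edgeR, chr1:204099826-204114268), and 204 tested genes had a larger log2 fold change. Prdx3, the peroxiredoxin confined to mitochondria, stood at 65.8, 67.2 and 66.5 FPKM untreated and at 58.6, 57.2 and 56.9 FPKM with LPS. All LPS values lay below all untreated ones, a 1.20-fold fall (log2 fold change -0.26 ± 0.043 SE, adjusted p = 0.00214 by edgeR). The ratio of Prdx5 to Prdx3 FPKM was 0.818, 0.508 and 0.517 untreated and 1.70, 1.92 and 1.66 with LPS. Prdx3 thus had the higher FPKM of the pair in every untreated and Prdx5 in every LPS library.

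Prdx1, a cytosolic peroxiredoxin, had the highest untreated FPKM of all members at 224, 212 and 193, against 228, 235 and 225 with LPS. The LPS values lay just above the untreated ones, and the difference did not pass (1.06-fold, adjusted p = 0.281 by edgeR). Without untreated replicate 1 it did (adjusted p = 0.0479 by edgeR). Prdx2, its cytosolic relative, stood at 105, 102 and 98.8 FPKM untreated and at 137, 141 and 129 FPKM with LPS, a 1.29-fold rise with separate groups (adjusted p = 0.000787 by edgeR). Prdx4 of the endoplasmic reticulum stood at 35.4 ± 0.482 and 37.5 ± 0.966 FPKM (adjusted p = 0.594 by edgeR). Prdx6, which also acts on phospholipids, stood at 18.7 ± 1.05 and 21.6 ± 1.21 FPKM (adjusted p = 0.0627 by edgeR). It passed as higher without untreated replicate 1 (0.00943), without LPS replicate 3 (0.0437), in DESeq2 (0.0401), in limma on log2(FPKM + 1) (0.0493) and with library totals as the only scaling (0.0272).

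Of 7 tested genes of the thioredoxin system, 2 rose (28.6%) and 0 fell, beside 20.1% and 19.0% of all tested genes. The substrate proteins rose and their reductases did not pass. Txn1, the cytosolic thioredoxin, stood at 166, 149 and 159 FPKM untreated and at 207, 219 and 199.975 FPKM with LPS. No values overlapped, and the rise was 1.28-fold (log2 fold change 0.35 ± 0.054 SE, adjusted p = 0.00139 by edgeR). Txn2, its mitochondrial counterpart, was 1.09-fold higher, at 24.98 ± 0.547 and 28.0 ± 0.352 FPKM (adjusted p = 0.0489 by edgeR). That call was lost in 13 of 17 alternatives, which included leaving out any one of the 6 libraries (adjusted p from 0.0570 to 0.136 by edgeR) and DESeq2 (0.0849).

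The thioredoxin reductases, which are selenoenzymes, stood at 35.4 ± 1.71 and 36.3 ± 1.70 FPKM for cytosolic Txnrd1, at 3.28 ± 0.326 and 3.37 ± 0.562 FPKM for mitochondrial Txnrd2 and at 1.59 ± 0.0875 and 1.41 ± 0.265 FPKM for Txnrd3. Groups overlapped for all 3 genes. Txnip, the thioredoxin-binding inhibitor that is induced by glucose, stood at 39.999, 56.9 and 39.5 FPKM untreated and at 43.6, 46.7 and 46.5 FPKM with LPS. Untreated replicate 2 was the highest of all 6 libraries for this gene, and the LPS values lay inside the untreated range (adjusted p = 0.802 by edgeR). Srxn1, which restores over-oxidized peroxiredoxins, stood at 6.09 ± 0.852 and 5.11 ± 0.784 FPKM (adjusted p = 0.187 by edgeR).

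Of the 4 genes that make or recycle glutathione, 1 rose and 0 fell, beside 20.1% and 19.0% of all tested genes. With 4 genes the share rests on 1 call, that of Gsr. This gene for glutathione reductase, which regenerates the reduced form with NADPH, stood at 8.77, 7.88 and 7.58 FPKM untreated and at 11.3, 11.6 and 11.1 FPKM with LPS, a 1.36-fold rise with separate groups (log2 fold change 0.44 ± 0.062 SE, adjusted p = 0.000927 by edgeR). Gclc, the catalytic subunit of the rate-limiting glutamate-cysteine ligase, stood at 12.1, 11.8 and 11.0 FPKM untreated and 13.3, 12.6 and 13.8 FPKM with LPS. The groups were separate by a small margin and the gene did not pass (1.10-fold, adjusted p = 0.103 by edgeR), except with library totals as the only scaling (0.0314). Its modifier subunit Gclm stood at 7.60 ± 0.853 and 8.96 ± 0.910 FPKM (adjusted p = 0.220 by edgeR). Gss, which completes glutathione synthesis, stood at 20.0, 19.0 and 21.0 FPKM untreated and 19.5, 21.3 and 20.3 FPKM with LPS, with overlapping groups (adjusted p = 0.769 by edgeR).

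The soluble and kappa glutathione transferases made up 18 of the 55 members, and 12 were tested, of which 2 rose (16.7%) and 1 fell (8.33%). These stand beside 20.1% and 19.0% of all tested genes, and with 12 tested genes each share rests on 1 or 2 calls. Gstp1, the pi class enzyme, stood at 42.0, 46.4 and 45.1 FPKM untreated and at 64.8, 55.4 and 58.0 FPKM with LPS. The groups were separate and the rise was 1.29-fold (log2 fold change 0.37 ± 0.072 SE, adjusted p = 0.00444 by edgeR). Gsto1, the omega class enzyme, rose 1.42-fold, from 5.22 ± 0.323 to 7.66 ± 0.443 FPKM (adjusted p = 0.00114 by edgeR). Gstm5, a mu class enzyme, stood at 63.6, 65.9 and 60.2 FPKM untreated and at 52.2, 54.5 and 54.7 FPKM with LPS. All LPS values lay below the untreated ones, a 1.22-fold fall (log2 fold change -0.28 ± 0.048 SE, adjusted p = 0.00237 by edgeR). Gstm5 had the higher FPKM of these abundant transferases in every untreated library and Gstp1 in every LPS library.

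The 6 Gstm genes lie together on chromosome 2 within 154 kb of mRatBN7.2, and their levels spanned a wide range. Gstm5 stood highest and Gstm2 next, at 26.2 ± 0.743 and 25.9 ± 0.831 FPKM (untreated and LPS), followed by Gstm4 at 8.31 ± 1.22 and 9.43 ± 0.0575, Gstm1 at 5.57 ± 0.497 and 5.63 ± 0.262, and Gstm7 at 2.51 ± 0.102 and 2.76 ± 0.523 FPKM. Gstm3 never exceeded 0.0398 FPKM. Gstm5 made up 59.7% ± 1.09 of their summed FPKM without LPS and 55.2% ± 0.582 with it (SD, n = 3). These genes are close copies, and the annotated span of Gstm2 covers Gstm7 and Gstm3, so reads could be shared among them. Gstm4 passed as higher without untreated replicate 1 (adjusted p = 0.0378 by edgeR).

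The remaining transferases did not pass. Gsta1 of the alpha class stood at 5.67 ± 1.41 and 7.39 ± 0.827 FPKM (adjusted p = 0.180 by edgeR, and 0.0445 without untreated replicate 1). Gstk1, Gstt1, Gstt2 and Gstz1 had means between 2.96 and 8.53 FPKM with overlapping groups. Gsta4, Gsta5, Gsta6, Gstm3, Gsto2 and Gstt3 were below the filter, each at most 0.686 FPKM. Of the 3 microsomal transferases, Mgst2, a membrane enzyme that can also make leukotriene C4, stood at 27.5, 20.3 and 24.4 FPKM untreated and at 43.6, 41.4 and 41.4 FPKM with LPS. The groups were separate, and the rise was 1.69-fold (log2 fold change 0.76 ± 0.10 SE, adjusted p = 0.000794 by edgeR, chr2:135693557-135715828). Mgst3 stood at 11.4, 9.33 and 9.88 FPKM untreated and at 12.3, 15.6 and 12.8 FPKM with LPS, a 1.29-fold rise (adjusted p = 0.0380 by edgeR). The Mgst3 call was lost in 8 of 17 alternatives, among them leaving out any one library other than untreated replicate 1 (adjusted p from 0.0528 to 0.142 by edgeR). Mgst1 stood at 5.12 ± 0.273 and 5.21 ± 0.673 FPKM.

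**Figure D4:**
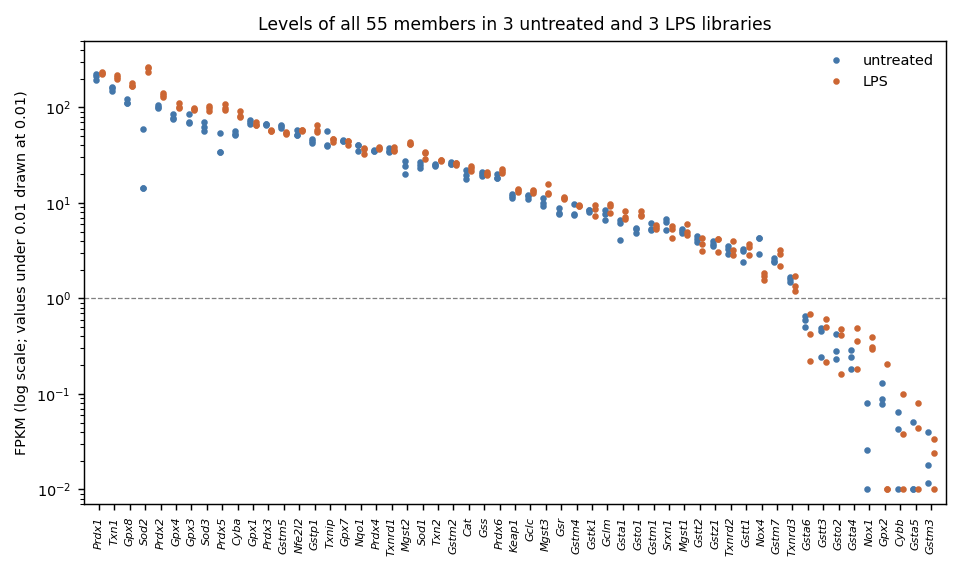
FPKM of all 55 members in each of the 3 untreated and 3 LPS libraries, on a log axis and ordered by the mean over all 6, with the dashed line at 1 FPKM. The 9 members to the right stay below the line, and among those above it Sod2, Prdx5 and Nox4 are the members with a fitted change of over 2-fold.

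Transcripts of the NRF2 switch differed little between groups. Nfe2l2, which encodes NRF2, stood at 57.9, 51.7 and 51.0 FPKM untreated and at 58.1, 57.7 and 56.1 FPKM with LPS. Groups overlapped (1.03-fold, adjusted p = 0.515 by edgeR). NRF2 is controlled mainly through the stability of the protein, which RNA does not show. Keap1 was 1.11-fold higher, at 11.8 ± 0.601 and 13.6 ± 0.466 FPKM (adjusted p = 0.0476 by edgeR), a call lost in 12 of 17 alternatives. These included DESeq2 (0.0670) and leaving out any one library other than untreated replicate 2 (adjusted p from 0.0570 to 0.154 by edgeR). Nqo1, the quinone reductase widely used as a readout of NRF2, stood at 40.6, 34.7 and 40.3 FPKM untreated and at 36.9, 37.2 and 32.8 FPKM with LPS. The values overlapped (adjusted p = 0.121 by edgeR), and without untreated replicate 2 the gene passed as lower (0.0399).

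The NADPH oxidase genes moved in opposite directions. Nox4, the constitutively active catalytic subunit found in fibroblasts and other stromal cells, stood at 2.93, 4.25 and 4.30 FPKM untreated and at 1.58, 1.85 and 1.70 FPKM with LPS. The groups were separate, with untreated replicate 1 nearest the LPS libraries. The fall was 2.31-fold (log2 fold change -1.21 ± 0.17 SE, adjusted p = 0.000847 by edgeR, chr1:140901097-141077406), and 131 tested genes had a lower log2 fold change. Cyba, which encodes p22phox, the membrane partner that Nox4 and other catalytic subunits need, stood at 56.6, 51.1 and 52.8 FPKM untreated and at 80.0, 91.7 and 82.03 FPKM with LPS. All LPS values lay above the untreated ones, a 1.53-fold rise (log2 fold change 0.61 ± 0.062 SE, adjusted p = 0.000216 by edgeR, chr19:50487597-50495721). The ratio of Cyba to Nox4 FPKM was 19.3, 12.01 and 12.3 untreated and 50.6, 49.6 and 48.2 with LPS.

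The other catalytic subunits among the members, Cybb and Nox1, were scarcely detected. Nox3, which the rule also covered, had no row in the deposited table. Cybb, the phagocyte oxidase subunit, was at most 0.101 FPKM and at 0 in untreated replicate 2 and LPS replicate 2. Nox1 was below the filter at 0.0812, 0.00401 and 0.0261 FPKM untreated and at 0.311, 0.296 and 0.393 FPKM with LPS. Its groups were separate, and in the fit without a filter on low values its adjusted p was 0.0205 by edgeR, from 20, 1 and 7 count units in the untreated and 74, 71 and 96 in the LPS libraries. Of 12 oxidase partner and related genes in the table, 5 were tested, with 1 higher and 2 lower, beside a background of 20.1% and 19.0%. Duox1, a dual oxidase, fell from 2.29 ± 0.182 to 1.44 ± 0.204 FPKM (1.64-fold, adjusted p = 0.00262 by edgeR), Poldip2, which binds p22phox, was 1.11-fold lower (0.0374) and Cybc1, a chaperone of the phagocyte oxidase, was higher by 0.17 on the log2 scale (0.0187). The Cybc1 call was lost without untreated replicate 3 (0.0686), LPS replicate 1 (0.0546) or LPS replicate 2 (0.0621) and that of Poldip2 without any one library other than untreated replicate 1 (up to 0.136), so that 1 of these genes was called without untreated replicate 3, LPS replicate 1 or LPS replicate 2. Ncf1, Ncf4 and Rac2, cytosolic subunits of the phagocyte enzyme, were each at most 0.149 FPKM.

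Of 14 tested rows of NRF2 regulators, 2 rose (14.3%) and 5 fell (35.7%), beside 20.1% and 19.0% of all tested genes, with a median log2 fold change of 0.04. Sesn2, a stress-induced sestrin, fell 1.49-fold, from 35.2 ± 0.560 to 24.4 ± 3.00 FPKM (adjusted p = 0.000917 by edgeR), and Sqstm1, the autophagy adaptor p62 that competes for KEAP1, fell 1.26-fold, from 90.2 ± 0.777 to 73.8 ± 1.53 FPKM (0.000364). The small MAF partner gene Mafk fell 1.31-fold (0.00436), and Maff rose 1.42-fold (0.0333). The Maff call was lost without any one library other than untreated replicate 1 (up to 0.105), and its fold was 1.62 without that library.

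Of 28 tested rows of NRF2 targets outside the members, 11 rose and 7 fell, beside 20.1% and 19.0% of all tested genes, with a median log2 fold change of 0.23. Aldh3a1, an aldehyde dehydrogenase, stood at 1.92, 0.484 and 0.803 FPKM untreated and at 5.57, 4.89 and 4.94 FPKM with LPS, so it passed the expression filter through its LPS values. Its rise was 4.64-fold (adjusted p = 0.00324 by edgeR), or 7.63-fold without untreated replicate 1. Ugdh, which supplies UDP-glucuronate, rose 2.01-fold (0.00286) and Nqo2, the relative of Nqo1, 1.83-fold (0.00298). Slc7a11, the cystine transporter that feeds glutathione synthesis, stood at 2.30, 2.77 and 2.67 FPKM untreated and at 0.841, 0.631 and 0.948 FPKM with LPS (3.31-fold lower, 0.000168), and it passed the filter through its untreated values. Hmox1, the inducible haem oxygenase, was chosen after its values were seen because it is a standard readout of this pathway, and it fell as well. It stood at 82.7, 70.8 and 66.6 FPKM untreated and at 48.5, 52.6 and 53.5 FPKM with LPS (1.47-fold lower, adjusted p = 0.000882 by edgeR).

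Of 29 tested genes of the glutathione and thiol cycle outside the members, 10 rose (34.5%) and 6 fell (20.7%), beside 20.1% and 19.0% of all tested genes, and the median log2 fold change was 0.05. The share that fell was near that of all tested genes. Those that fell included Slc7a11, which also stands in the NRF2 target list, Chac1, which degrades glutathione, and Cth, which makes cysteine by transsulfuration. Chac1 stood at 57.9, 76.0 and 65.6 FPKM untreated and at 26.9, 27.0 and 38.4 FPKM with LPS (2.24-fold lower, adjusted p = 0.000641 by edgeR), and Cth at 25.1, 28.8 and 27.7 and at 13.4, 13.1 and 14.2 FPKM (2.07-fold lower, 4.57e-05). Glrx, the cytosolic glutaredoxin that removes glutathione from protein thiols, rose from 9.27, 5.26 and 5.25 FPKM to 17.9, 17.5 and 14.2 FPKM (2.43-fold, 0.00228).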

How the data were processed

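RNA was measured by poly(A)-selected paired-end sequencing of 6 libraries, 3 per group, all in 1 batch per the labels. The build was mRatBN7.2 and the tools named were StringTie 2.1.6, HISAT2 2.2.1, cutadapt 1.9, edgeR and DESeq2, per the submitters' processing notes. The sources used here do not give the annotation release, the strand setting or how counts were derived, so antisense overlaps and close copies are uncertain. The deposited FPKM columns hold the authors' values, scaled by transcript length and library size. The other columns are estimated counts from the authors, deposited without normalization as far as the values show. They are whole, so rounding changed nothing, and multiples of 4 made up 31.9% to 32.9% of values from 1 to 40, more than an even spread would give. How many count units 1 fragment gives was not settled, so values are given in count units, and a fit to counts divided by 4 was an alternative.

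The counts of all 11559 tested genes were fitted with edgeR 4.0.16 (trimmed-mean factors, glmQLFit, glmQLFTest) in R 4.3.3, with group as the only term. Each standard error is the size of the log2 fold change over the root of its F statistic. Means ± SD are of deposited FPKM. Other tests used limma 3.58.1, DESeq2 1.42.0 and scipy 1.17.1. The scripts were tested on simulated counts, in which DESeq2 made more false calls than edgeR. The members and gene lists were chosen with earlier results of these data known. Values in every library are given for members called with at least 1.5-fold change and for the most abundant pair in each role group, and some further members are shown the same way. Outside the members, up to 4 called genes with the largest change per list are named. Promoter windows come from RefSeq on GRCr8. They were used only for sequence, and coordinates of genes are those of the deposited table. Some genes of the lists are not reported here.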

Additional observations from a re-analysis of the deposited data

How the results depend on the processing

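All 17 alternatives were run. Of the 20 called members, 16 passed in every alternative that tested them, and Gpx3, Keap1, Mgst3 and Txn2 lost the call in some. Of 26 members that were not called, 18 were called in no alternative. The number of members called higher ran from 13 to 20 and of those lower from 2 to 4 (17 and 3 as reported). On leaving out 1 library at a time, called oxidase partners ran from 1 to 3 (3 as reported) and called selenoprotein genes from 4 to 12 (10 as reported), and the Sod2 difference from 218 to 241 FPKM. With the replicate number as a block, 14 members were higher and 3 lower, and 2160 and 2024 genes. The labels tie same-numbered libraries by number alone. Their deviations correlated at 0.0362, 0.0836 and 0.0938. Each library correlated best with its own number, a hint from the data and not the design, so whether they are paired was not settled. Over all genes, higher calls ran from 1752 to 2927 and lower calls from 1631 to 2549. Members below 1 FPKM rest on low counts, and differences there were not detectable at this depth, apart from Nox1.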

Other observations

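Of 27 tested genes of selenoprotein synthesis and other selenoproteins, 7 rose (25.9%) and 3 fell (11.1%), beside 20.1% and 19.0% of all tested genes, and the median log2 fold change was 0.01. The list as a whole was called about as often as other genes. Selenoh, a nuclear selenoprotein, rose 1.34-fold, from 41.3 ± 3.18 to 57.5 ± 3.41 FPKM (SD, n = 3, adjusted p = 0.00466 by edgeR). Msrb3, a methionine sulfoxide reductase but no selenoprotein, fell 1.49-fold, from 52.9 ± 2.12 to 36.7 ± 0.750 FPKM (0.000113). Sephs2, which makes the selenium donor, rose 1.22-fold (0.0131), a call lost without untreated replicate 3 (0.0523). Selenbp1, which binds selenium but is no selenoprotein, passed the expression filter through its LPS values, at 0.798, 0.340 and 0.766 FPKM untreated and 1.94, 2.07 and 2.01 FPKM with LPS. The number called in this list fell from 10 to 4 without untreated replicate 3 and to 6 without LPS replicate 2.

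Of 22 tested rows of metal and haem handling genes, 9 rose (40.9%) and 3 fell (13.6%), beside 20.1% and 19.0% of all tested genes, with a median log2 fold change of 0.25. Slc39a14, a transporter of zinc, iron and manganese into the cell, stood at 51.8, 27.2 and 28.1 FPKM untreated and at 121, 124 and 114 FPKM with LPS. The groups were separate, with untreated replicate 1 nearest the LPS libraries (3.25-fold, adjusted p = 0.000635 by edgeR). The metallothioneins, which bind zinc and copper, rose too. Mt1 stood at 16.9, 3.65 and 5.48 FPKM untreated and at 62.7, 63.2 and 56.0 FPKM with LPS (6.75-fold, 0.00231, and 12.8-fold without untreated replicate 1). Mt2A stood at 43.8, 6.43 and 6.22 FPKM untreated and at 171, 192 and 145 FPKM with LPS (8.72-fold, 0.00656, and 25.8-fold without untreated replicate 1). Lcn2, which binds bacterial iron carriers, stood at 8.19, 0.0810 and 0 FPKM untreated and at 62.6, 67.3 and 47.3 FPKM with LPS (0.0156), so it passed the filter through its LPS values, and its call was lost in DESeq2 (0.110) and without LPS replicate 2 (0.0568). Manganese is the metal of the Sod2 enzyme. Whether these changes are related was not tested.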
